A study of Schmidtea mediterranea with 24 samples.

Results

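Ribosome biogenesis and nucleolar factors were followed in planarians (*Schmidtea mediterranea*, CIW4 strain) after knockdown (KD) of the fibrillarin homologs *fbl-1* and *fbl-2*. The 25 genes, of 16575 in each table of values, were picked by symbol: those whose best protein match begins with UTP, NOP, NOL, NOC, RRP, TSR, POLR1 and the like, or is *IMP3*, *MPHOSPH10*, *NHP2*, *NAT10* or a WDR protein of the processome or of the large subunit. Symbols came only from the rows held of 2 gene tables of the study, 1 ordered by the mRNA change in *fbl-1* KD and 1 by the p-value of the mRNA change in *fbl-2* KD, so a gene had to stand near the top of either order to be among the 25. By these tables, 7 members were listed for *fbl-1* only, 14 for *fbl-2* only and 4 for both (*WDR12*, *WDR3*, *UTP14A* and *RRP1B*).

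Ribosomes are assembled in the nucleolus, where RNA polymerase I transcribes a long precursor rRNA. The small subunit processome folds and cuts the 18S end of this precursor, other factors build the large subunit around the other rRNAs cut from it, and small nucleolar ribonucleoproteins (snoRNPs) guide chemical marks onto the rRNA. Fibrillarin is the enzyme of the box C/D snoRNPs that methylates rRNA riboses, and NOP56 sits beside it in the same particle. In planarians, the neoblasts are the dividing stem cells that feed regeneration. The roles given below are those known in yeast and human proteins.

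The worms were fed double-stranded RNA and cut, and regenerating head, trunk and tail pieces were taken at 48 hours post amputation. Libraries labelled *fbl-1* KD stand against *egfp* KD controls and libraries labelled *fbl-2* KD against *egfp* 2x KD controls, and every group, controls included, received RNAi. The study made the RNAi food for *fbl-1* more concentrated than the 2x food for *fbl-2*. The arms thus differ in dose as well as in target, and the dose of the controls is known only from their labels. RNAi was given by food to whole animals, so no cell type was targeted, and each replicate is a pool of worms whose lysate was divided between RNA-seq and Ribo-seq (sequencing of ribosome-protected footprints). Each group has 3 mRNA and 3 footprint libraries, 24 libraries in all. A value is a read number that the authors multiplied by a factor per library, called here a scaled value, and every test of a level is made for 1 gene, within 1 assay, between a KD and its own controls. Footprint libraries are named by their column, since the names do not say which mRNA library shares their lysate.

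Library totals lay between 8762055 and 10763740 scaled values. The targeted genes went against the labels: *fbl-1* mRNA was 129 to 143 in *egfp* KD but 753 to 1383 in the group named for its KD, and *fbl-2* mRNA was 127 to 144 in *egfp* 2x KD but 481 to 982 in its own KD group. Footprints of the targets were higher as well, at 690 to 958 against 285 to 338 for *fbl-1* and 1830 to 4232 against 294 to 315 for *fbl-2*. Reads of the fed double-stranded RNA would count toward these genes and cannot be told apart from transcripts in these values. The study reports that its own checks, by qPCR and in situ hybridization, showed most of the mRNA of each target lost. Those checks were not analysed here. Directions are given for the groups by their labels. The 3 neoblast markers (*piwi-1*, *vasa-1*, *MCM2*) summed to 17823 to 19215 for mRNA in *egfp* KD and to 11938 to 12837 in *fbl-1* KD, and to 14797 to 16936 in those labelled *fbl-2* KD and 17534 to 18275 in *egfp* 2x KD. Taken singly, each marker had overlapping mRNA groups in the *fbl-2* arm, with log2 changes of -0.21 (*piwi-1*), -0.16 (*vasa-1*) and 0.02 (*MCM2*). These are bulk values, in which fewer cells of a type and less RNA per cell cannot be told apart.

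Because the gene tables were ordered by these very libraries, a member was tested in an arm only where its place in the table of the other arm was enough to make it a member. The 18 members listed for *fbl-2* were tested in the *fbl-1* arm, and the 11 listed for *fbl-1* in the *fbl-2* arm. The 4 members in both tables are in both tests, since leaving them out would remove members for their change in the arm tested, and each stood high in the order of that arm as well. Elsewhere the values are descriptions. The smallest mRNA changes that the *fbl-1* order let in were those of *RRP1B* and *POLR1B*, at log2 changes of 0.32 and 0.33, and in the *fbl-2* order those of *TSR1* and *POLR1C*, at 0.26 and 0.28. Genes past the rows held carry no symbol here, so none just outside can be named.

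In the libraries labelled *fbl-1* KD, mRNA values of the 18 members tested were on balance slightly higher than in *egfp* KD, and footprint values were not. By limma on log2 values, 0 of 18 rose and 0 fell at the mRNA level, where 5.04% of 12965 genes were called (adjusted p under 0.05). At an unadjusted p under 0.05, 4 members were higher and 1 lower, beside 10.3% and 10.1% of all genes, and 3 of the 4 (*WDR12*, *UTP14A* and *WDR3*) also stand in the *fbl-1* table. The log2 change was positive for 14 of 18, with a median of 0.16, and negative for 4, where 48.2% of all genes were positive and 51.8% negative, with a median of -0.01. Leaving out single libraries gave 12 to 15 positive changes. The 3 libraries of *fbl-1* KD lay wholly above those of *egfp* KD for 5 of 18 members and wholly below for 0, where 11.0% and 12.7% of all genes did so. Of these 5, *WDR12*, *UTP14A* and *WDR3* were high in the order of the *fbl-1* table too. The same 3 and *RRP1B*, which stands in both tables as well, are among the 14 positive changes.

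*UTP15* and *WDR12* came nearest to a call. *UTP15*, a processome protein of the subcomplex that meets the nascent precursor first and in human cells also serves RNA polymerase I, had mRNA values of 208, 206 and 213 in *egfp* KD and 261, 322 and 293 in *fbl-1* KD. The groups did not overlap, and the controls were close together. The log2 change was 0.48 (SE 0.14, 1.39-fold, n = 3 libraries each, limma adjusted p = 0.0729, 0.101 to 0.214 when a library is left out). *WDR12*, which with PES1 and BOP1 forms the PeBoW complex needed to process the rRNA of the large subunit, had 163, 172 and 117 against 284, 220 and 183. Its log2 change was 0.60 (SE 0.20, 1.51-fold, limma adjusted p = 0.0957). Neither passed the threshold.

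*UTP14A*, *WDR3* and 1 of the *NOP56* genes also had mRNA values in *fbl-1* KD above all controls. *UTP14A*, whose yeast counterpart switches on the helicase Dhr1 (DHX37 in human) in the processome, had 247, 202 and 180 in *egfp* KD and 302, 252 and 292 in *fbl-1* KD, a log2 change of 0.43 (SE 0.16, limma adjusted p = 0.133). *WDR3*, a scaffold of the UTP-B subcomplex, had 195, 276 and 259 against 319, 329 and 301, a change of 0.39 (SE 0.16, limma adjusted p = 0.165). *NOP56* (SMED30028606), the partner of fibrillarin, had 581, 517 and 520 against 602, 597 and 657, a change of 0.20 (SE 0.12, limma adjusted p = 0.374). None of the 3 passed. A second row with the symbol *NOP56* (SMED30014621) had a change of 0.12 (SE 0.15). Whether these rows are separate genes or share reads is not known here, so neither value is certain to belong to a single gene.

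The other members tested had mRNA groups that overlapped their controls. *RRP1B*, a protein of the 60S precursor, was at 0.32 (SE 0.20, limma adjusted p = 0.396). *NHP2*, of the H/ACA snoRNPs that guide pseudouridylation, was at -0.19 (SE 0.20), and *IMP3*, which with MPHOSPH10 links U3 snoRNA to the precursor, at -0.18 (SE 0.23). In *IMP3* the control spread was wide: mRNA replicate 1 of *egfp* KD had 402 while the others had 199 and 202, and *fbl-1* KD had 188, 256 and 232. *NHP2* shared this library, with 331 in replicate 1 and 184 and 189 in the rest. *TSR1*, a GTPase-like protein of late 40S particles, had a change of 0.07 (SE 0.14), and *POLR1C*, a subunit shared by RNA polymerases I and III, of 0.02 (SE 0.16). *NOL4L* was the only member tested here with a negative change at an unadjusted p under 0.05, at -0.41 (SE 0.18, limma adjusted p = 0.221). It was taken in by the letters of its symbol, and no role in ribosome assembly is known for it.

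The 7 members listed only for *fbl-1* had been chosen for their mRNA change, and 6 of them passed the filter on low values. All 6 were higher in *fbl-1* KD, by log2 changes of 0.33 to 0.52, which the order of the table fixed. *WDR75*, of the same first-binding subcomplex as UTP15, had 174, 220 and 197 against 267, 316 and 264, and *UTP20*, a very large scaffold protein of the processome, 708, 927 and 709 against 1117, 1058 and 951. *RRP12*, an export factor of pre-40S particles, had 383, 513 and 426 against 604, 533 and 619. In these 3 genes and *UTP18*, 4 of the 6, every *fbl-1* KD library lay above every control, and in 0 below. Over all genes 11.0% and 12.7% had such groups, and nothing is read from the 4 since this contrast chose them.

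**Figure D1:**
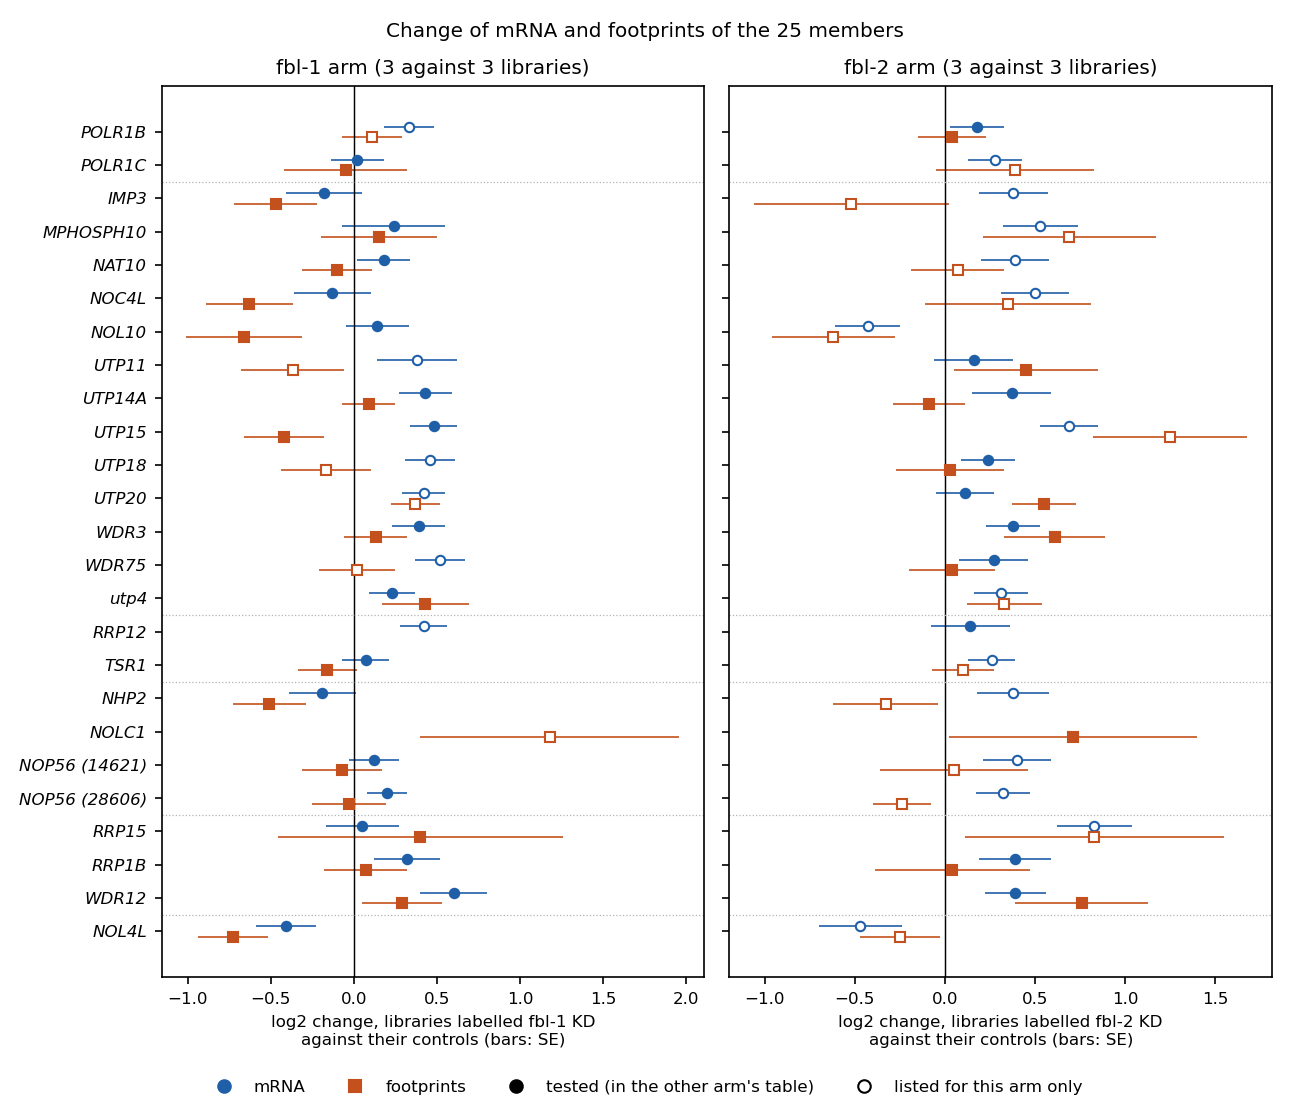
Log2 change of mRNA (circles) and footprints (squares) of each member in the libraries labelled *fbl-1* KD (left) and *fbl-2* KD (right) against their controls, with bars for the SE and n = 3 libraries per group. Filled symbols mark members listed in the table of the other arm, which were tested, and open symbols those listed only for that arm, rows are grouped by role (RNA polymerase I, early 18S factors, late 40S factors, snoRNP proteins, 60S factors, *NOL4L*), and in the left panel 14 of 18 filled circles but 7 of 18 filled squares lie to the right of 0.

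Footprints of the same 18 members gave no call in *fbl-1* KD either, and 11 of 18 were lower. By limma 0 rose and 0 fell, where 0.872% of 12503 genes were called (0.384% rose and 0.488% fell), and at an unadjusted p under 0.05 0 were higher and 3 lower, beside 7.03% and 8.19% of all genes. The change was positive for 7 members, as for 51.8% of all genes, and negative for 11, as for 48.2%. The median log2 change was -0.06, against 0.02 over all genes, and 9 to 12 members were lower when single libraries were left out. In 5 of 18 the *fbl-1* KD libraries lay wholly below the controls, where 12.5% of all genes did so.

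These 5 were *NOL4L*, *NOC4L*, *NHP2*, *IMP3* and *UTP15*. *NOC4L*, of the complex that brings Nop14 to the 40S precursor in yeast, had footprint values of 181, 140 and 143 in *egfp* KD and 106, 98 and 93 in *fbl-1* KD, while its mRNA groups overlapped (91, 117 and 86 against 65, 113 and 94). Its footprint change was -0.63 (SE 0.26, limma adjusted p = 0.284). *NHP2* had 386, 359 and 283 footprints against 192, 248 and 282, a difference of a single unit between the nearest libraries, with a change of -0.51 (SE 0.22, limma adjusted p = 0.312). *IMP3* had 255, 216 and 193 against 119, 180 and 185 (change -0.47, SE 0.25, limma adjusted p = 0.412). *NOL4L* had 321, 354 and 448 against 253, 201 and 216, with a change of -0.73 (SE 0.21, limma adjusted p = 0.137), the lowest adjusted p among the 18.

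*UTP15* was lower in footprints where it was higher in mRNA. Footprints were 182, 176 and 216 in *egfp* KD and 114, 161 and 156 in *fbl-1* KD, with a change of -0.42 (SE 0.24, limma adjusted p = 0.447), and neither assay's groups overlapped. Its translational efficiency (TE, the footprint change less the mRNA change) was at -0.90 (SE 0.26, unadjusted p = 0.00362 in limma's interaction fit over 12 libraries, adjusted p = 0.877). It was the only member of the 18 with an unadjusted p under 0.05 for TE, and the change stayed between -0.99 and -0.74 when any library was left out.

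For TE in *fbl-1* KD, 16 of the 18 members had a negative change. The median was -0.27, against 0.01 over all genes and a negative change in 48.5% and a positive one in 51.5% of 12243 genes, and the 16 became 15 to 17 when single libraries were left out. By limma 0 rose and 0 fell, as did 0% of all genes, and at an unadjusted p under 0.05 0 were higher and 1 lower, beside 2.17% and 2.79%. The exceptions were *utp4*, of the first-binding subcomplex, at 0.21 (SE 0.30), and *RRP15*, a 60S factor, at 0.34 (SE 0.95). The large error of *RRP15* went with its footprints, which were 67 and 84 in libraries egfp-1 and egfp-2 and 6 in egfp-3. The mRNA values enter TE with opposite sign, so the mRNA and TE counts are not separate measurements. The 18 share their 12 libraries as well.

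Neoblast markers were lower in the same libraries. All 3 had *fbl-1* KD values below every control in mRNA and in footprints, where 12.7% and 12.5% of all genes did so. In mRNA *piwi-1* fell by 0.70 on the log2 scale (SE 0.13, limma adjusted p = 0.00604), *MCM2* by 0.43 (SE 0.12, adjusted p = 0.0438), and *vasa-1* was at -0.39 (SE 0.12, adjusted p = 0.0685). In footprints *vasa-1* passed (limma adjusted p = 0.0366), while *piwi-1* (0.0885) and *MCM2* (0.174) did not. Summed footprint values of the 3 were 10214 to 12517 in *fbl-1* KD and 16761 to 20853 in *egfp* KD. The 5 epidermal lineage markers summed to 3428 to 3706 for mRNA in *fbl-1* KD and 3270 to 4343 in *egfp* KD, and *zpuf-3* was at 0 in 1 footprint library of *fbl-1* KD. Within this list *egr-5* mRNA rose (0.52, SE 0.14, limma adjusted p = 0.0423) and *prog-1* mRNA fell (-0.57, SE 0.15, adjusted p = 0.0427), with *prog-1* footprints at -1.16 (SE 0.23, adjusted p = 0.0527). Their part in the values of the members was not tested.

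In the libraries labelled *fbl-2* KD, all 10 of the 11 members listed for *fbl-1* that could be tested had a positive mRNA change, and none passed. The changes lay between 0.11 and 0.39 with a median of 0.26, against 0.00 over all genes, of which 50.2% had a positive and 49.8% a negative change. By limma 0 rose and 0 fell, where 0.363% of 12958 genes were called. At an unadjusted p under 0.05, 2 members were higher and 0 lower, beside 5.28% and 4.65% of all genes. These 2, *WDR12* and *WDR3*, also stand in the *fbl-2* table. The 10 positive changes became 7 without *fbl-2* KD replicate 2 and 8 without *egfp* 2x KD replicate 2, and stayed at 10 without each of the others. *NOLC1* did not pass the filter on low values in mRNA.

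*WDR12*, *WDR3* and *UTP18* had mRNA groups that did not overlap, 3 of 10 members where 7.08% of all genes had higher and 7.91% lower groups of this kind. Of these, *WDR12* and *WDR3* were high in the order of the *fbl-2* table too. *WDR12* had 194, 155 and 148 in *egfp* 2x KD and 239, 215 and 196 in *fbl-2* KD, the highest control being 2 units under the lowest KD library (change 0.39, SE 0.17, limma adjusted p = 0.478). *WDR3* had 274, 252 and 310 against 411, 339 and 341 (change 0.38, SE 0.15, limma adjusted p = 0.436). *UTP18*, another UTP-B protein, had 244, 204 and 249 against 289, 282 and 252 (change 0.24, SE 0.15, limma adjusted p = 0.675).

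Footprints of these members in *fbl-2* KD were higher for 9 of 10, as for 51.6% of all genes, and lower for 1, as for 48.4%, with a median change of 0.24 against 0.02 over all genes. By limma 0 rose and 0 fell, where 3.12% of 12612 genes were called, and 2 were higher and 0 lower at an unadjusted p under 0.05, beside 6.53% and 7.04%. Leaving out single libraries gave 6 to 8 positive changes, fewer than with all of them. TE changes of 9 members were split, 4 positive and 5 negative (50.2% and 49.8% of 12364 genes), and 0 were called or had an unadjusted p under 0.05, beside 0% called and 2.30% and 3.46% at that limit among all genes.

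*UTP20* had footprint values of 785, 753 and 814 in *egfp* 2x KD and 1347, 787 and 1414 in *fbl-2* KD. Libraries fbl-2_1 and fbl-2_3 stood far above the controls and fbl-2_2 among them. The change was 0.55 (SE 0.18, limma adjusted p = 0.116), and without library fbl-2_2 it was 0.82 with an adjusted p of 0.000278, so this library decided the call. Its mRNA values overlapped (930, 672 and 839 against 863, 1015 and 752, change 0.11, SE 0.16). *WDR12* had 83, 121 and 102 footprints against 176, 134 and 212, with no overlap (change 0.76, SE 0.37, limma adjusted p = 0.388), the single such member of 10, where 9.25% of all genes had higher and 8.96% lower groups without overlap. *WDR3* footprints were 257, 230 and 149 against 370, 234 and 362 (change 0.61, SE 0.28, limma adjusted p = 0.351).

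The 14 members listed only for *fbl-2* were described in that arm without a test. In mRNA 12 were higher and 2 lower, with a median log2 change of 0.38. *RRP15* had 70, 80 and 61 in *egfp* 2x KD and 151, 129 and 101 in *fbl-2* KD (0.83), and *UTP15* 180, 213 and 197 against 283, 302 and 377 (0.69). *NOC4L* had 88, 123 and 92 against 130, 146 and 149 (0.50). The groups of these 3 did not overlap, and in all 8 of the 14 had wholly higher and 1 wholly lower groups, beside 7.08% and 7.91% of all genes, from which nothing is read since this contrast chose them. The 2 lower members were *NOL10*, a WD-repeat protein of the early 40S precursor, with 225, 180 and 202 against 145, 178 and 129 (-0.43, the wholly lower one), and *NOL4L*, with 235, 159 and 167 against 103, 184 and 123 (-0.47). In footprints 9 of the 14 were higher and 5 lower, with a median of 0.09. *UTP15* footprints were 110, 133 and 40 against 218, 224 and 164, a log2 change of 1.25, with the lowest value in control library egfp_2x_3.

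**Figure D2:**
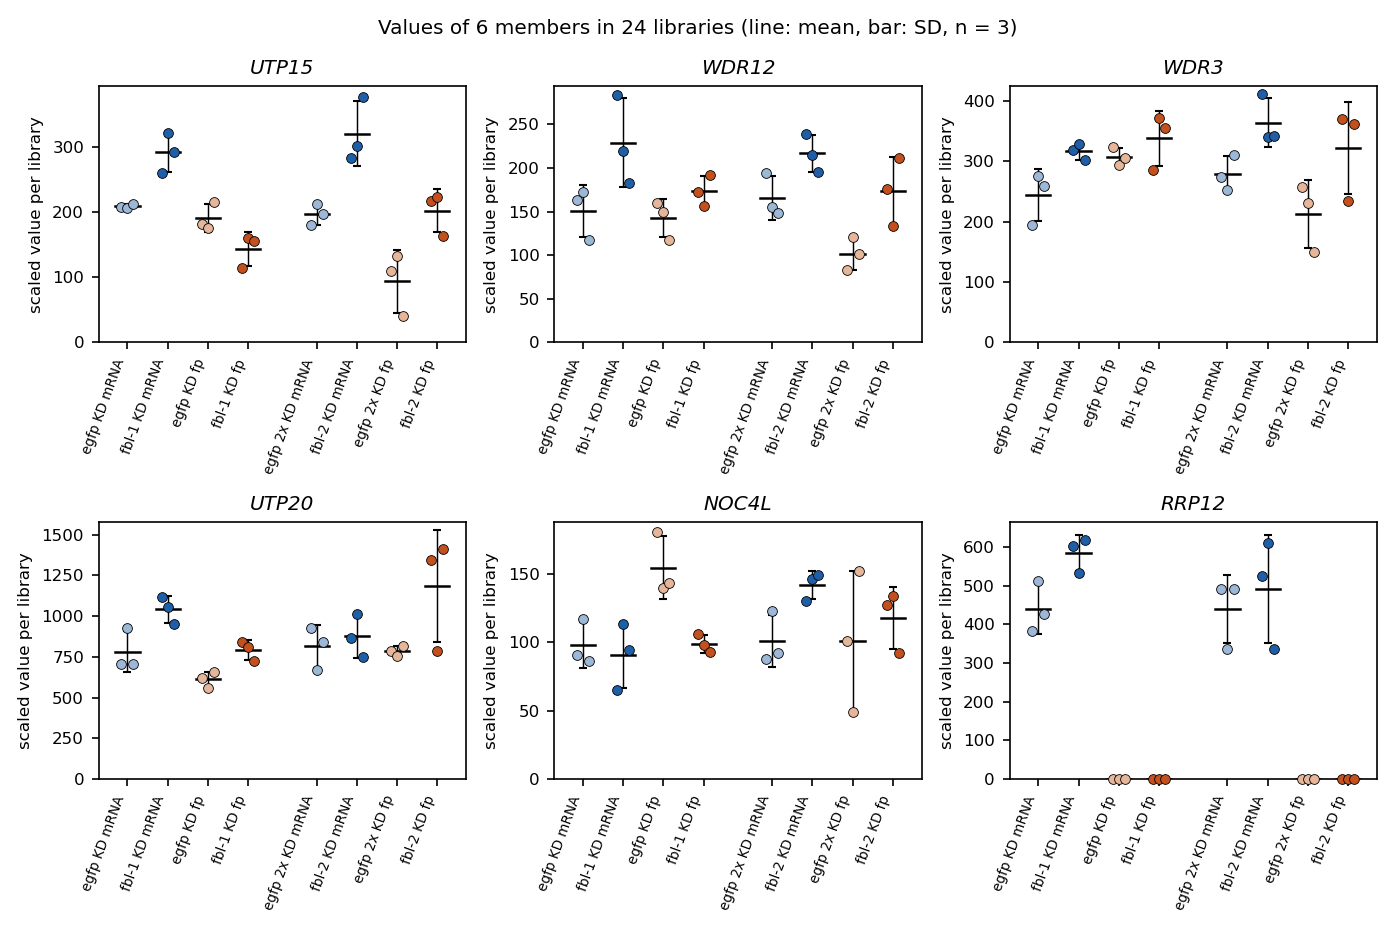
Scaled values of 6 members in every library, with a line at the mean and a bar for the SD of the 3 libraries of a group, mRNA in blue and footprints (fp) in orange, controls in the lighter shade. *UTP15* footprints lie below their controls in the *fbl-1* arm and above them in the *fbl-2* arm, 1 of the 3 *UTP20* footprint libraries of *fbl-2* KD lies among its controls, and *RRP12* has mRNA but footprint values of 0.

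The snoRNP proteins, the group nearest to fibrillarin, gave no call in the arm where they were tested. In *fbl-1* KD the 2 *NOP56* rows had footprint changes of -0.07 (SE 0.24) and -0.03 (SE 0.22). In *fbl-2* KD, described only, the mRNA changes of *NHP2* and both *NOP56* rows were 0.32 to 0.40, while their footprint changes were -0.33 to 0.05. All 3 had a negative TE change in each arm, beside 48.5% of all genes in *fbl-1* KD and 49.8% in *fbl-2* KD. In the *fbl-2* arm nothing is read from this, since they were listed for their mRNA change, which enters TE with opposite sign. *NOP56* (SMED30028606) footprints in *fbl-2* KD were 759, 601 and 624, overlapping the 719, 865 and 749 of *egfp* 2x KD.

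Footprint and mRNA values of a few members did not go together at all. *RRP12* had mRNA values of 337 to 619 in 12 libraries and was listed at 0 in all 12 footprint libraries. Of the 4041 genes with a mean mRNA value at least as high as that of *RRP12*, 20 (0.495%) were at 0 in every footprint library. An exact 0 in scaled values can be a gene that was not counted, so no footprint level of *RRP12* is given. *NOLC1*, a phosphoprotein that escorts snoRNPs, was the reverse, with mRNA values of 0 to 15 and footprints of 6 to 98. Its footprints were 42, 14 and 98 in *egfp* 2x KD and 73, 75 and 49 in *fbl-2* KD (change 0.71, SE 0.69, limma adjusted p = 0.715), and the KD libraries lay within the range of the controls.

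In control worms the members spanned most of the range of footprint value relative to mRNA value. The log2 footprint mean less the log2 mRNA mean was centred on the median of all genes tested, since the assays are scaled apart. In *egfp* KD 14 of 23 members lay above the median gene and 9 below, with a median of 0.24, and in *egfp* 2x KD 15 and 8, with a median of 0.16, where the middle range of all genes (lower to upper quartile) was -0.50 to 0.50 and -0.48 to 0.48. *UTP14A* was at percentile 92.6 and 96.6 of all genes in these controls, *WDR75* at 89.4 and 87.4 and *POLR1B* at 74.8 and 85.5. *RRP15* was low, at 6.25 and 9.76, as was *POLR1C*, at 11.5 and 11.4, so the RNA polymerase I subunits stood apart from each other in both sets of controls. The rank of *RRP15* in *egfp* KD rests in part on library egfp-3, since its footprints there ranged from 6, in that library, to 84. The order was not the same throughout: *UTP15* was at percentile 46.0 in *egfp* KD and 8.54 in *egfp* 2x KD, *IMP3* at 42.1 and 7.39, and *WDR3* at 71.4 and 31.8. Footprints in *egfp* 2x KD were scattered, from 40 to 133 for *UTP15*, 47 to 182 for *IMP3* and 149 to 257 for *WDR3*. Single low libraries thus weigh on these ranks. Gene length was not available here, and no test was made of these ranks.

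**Figure D3:**
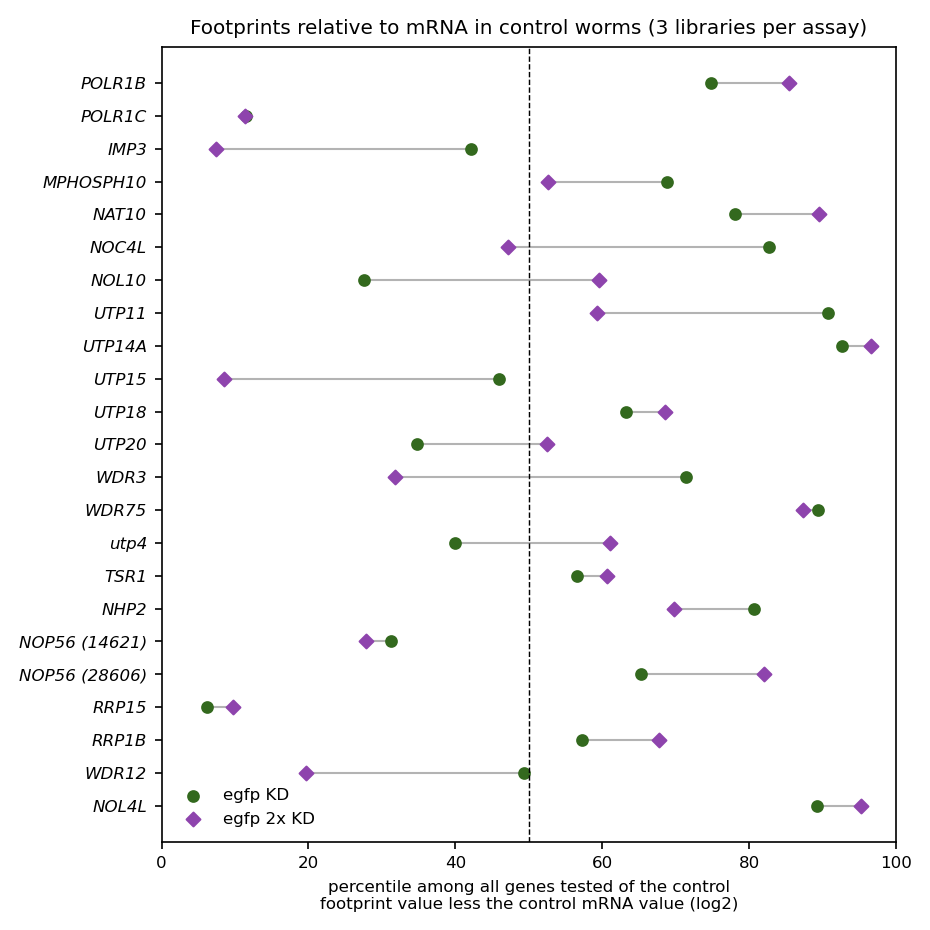
Percentile among all genes tested of the control footprint value less the control mRNA value (log2 means of 3 libraries per assay) for the 23 members with both assays, in *egfp* KD (circles) and *egfp* 2x KD (diamonds), with a dashed line at the median gene. *UTP14A* and *RRP15* lie near the ends in both controls, while *UTP15*, *IMP3* and *WDR3* lie far apart between them. The place of *RRP15* in *egfp* KD rests in part on the low footprint value of library egfp-3.

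Within groups, the typical pair of members showed little shared movement from library to library, though in some libraries most members lay on 1 side. The deviation of each log2 value from its group mean was correlated between members over the 12 mRNA libraries, and the median of 276 pairs was 0.02, with 147 pairs positive. In footprints the median was -0.04. Single pairs were close: *WDR75* and *utp4* at 0.91, *UTP20* and *RRP12* at 0.83 and *IMP3* and *NHP2* at 0.84 in mRNA, and *NOL10* and *POLR1C* at 0.92 in footprints. *UTP20* and *NOP56* (SMED30014621) ran opposite, at -0.83. These are the ends of a long list of pairs, and the points share their libraries and scaling. The correlations were not set beside those of other genes. In replicate 3 of *fbl-2* KD mRNA, 18 of 24 members were below their group mean, with a median deviation of -0.12 against -0.01 over all genes, and in footprint library fbl-2_1 18 of 24 were above it (0.13 against 0.02).

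A further 29 genes of ribosome biogenesis, helicases, GTPases, nucleases and assembly factors listed by exact symbol, were split by table in the same way. Of 23 listed for *fbl-2*, 22 could be tested in *fbl-1* KD, and 3 rose and 0 fell in mRNA, where 2.59% of all genes rose and 2.45% fell. The change was positive for 19 of 22, with a median of 0.24, where 48.2% of all genes were positive. Among the 19, *DCAF13*, *DDX21*, *DDX49*, *DHX37*, *EXOSC5*, *NSUN5*, *RIOK2* and *ZNHIT6* also stood high in the order of the *fbl-1* table. Their changes were 0.35 to 0.82, so the count is in part fixed by that order. *DDX21*, a nucleolar RNA helicase, rose from 2264, 2478 and 1586 in *egfp* KD to 4594, 2696 and 3994 in *fbl-1* KD (log2 change 0.82, SE 0.18, 1.77-fold, limma adjusted p = 0.0172). Removal of replicate 3 of *egfp* KD (adjusted p = 0.0979), or of replicate 1 (0.117) or 3 (0.11) of *fbl-1* KD, ended the call. *DDX49*, an RNA helicase, rose from 257, 235 and 275 to 409, 352 and 354 (0.54, SE 0.14, limma adjusted p = 0.0359), and *DHX37*, the helicase that takes U3 snoRNA off the 18S precursor in yeast, from 290, 309 and 289 to 410, 385 and 437 (0.47, SE 0.13, limma adjusted p = 0.0474). *DDX49* lost its call whichever library was left out (0.0524 to 0.167), and *DHX37* in each such fit except that leaving out replicate 2 of *egfp* KD (highest 0.208). These 3 genes stand in both tables, so they were high in the order of the *fbl-1* table too, and none of the 3 passed without a mean trend in the variance (adjusted p of 0.118 to 0.175). In footprints 0 rose and 0 fell by limma, with 1 higher and 3 lower at an unadjusted p under 0.05, beside 7.03% and 8.19% of all genes. For TE 0 rose and 0 fell, with 0 higher and 3 lower at that limit, beside 2.17% and 2.79%, and 15 of 22 changes were negative, as were 48.5% of all genes.

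In *fbl-2* KD, the 14 of these genes listed for *fbl-1* were tested. In mRNA 0 rose and 0 fell by limma, where 0.363% of all genes were called. At an unadjusted p under 0.05, 5 were higher and 0 lower, beside 5.28% and 4.65% of all genes, and all 14 changes were positive (0.08 to 0.61), as were 50.2% of all genes. All 5, among them *DDX49*, *DHX37* and *EXOSC5*, also stand in the *fbl-2* table, so their count is not independent of this contrast. *DCAF13*, *DDX21* and *NSUN5* of the 14 stand in that table as well. In footprints 1 rose and 1 fell, where 1.17% of all genes rose and 1.96% fell. *GTPBP4*, a GTPase of the 60S precursor, fell from 5797, 6210 and 4896 in *egfp* 2x KD to 3655, 3703 and 4091 in *fbl-2* KD (log2 change -0.56, SE 0.10, limma adjusted p = 0.000859), and kept its call when any library was left out but not without a mean trend in the variance (adjusted p = 0.402). Its mRNA values overlapped (1569, 1247 and 1837 against 1745, 2111 and 1278). *MDN1*, the giant ATPase that strips assembly factors from the 60S precursor, rose from 2715, 2424 and 2570 to 3622, 3272 and 3467 (0.43, SE 0.10, limma adjusted p = 0.0109), which did not hold without library fbl-2_1 (0.0722), fbl-2_3 (0.0628) or egfp_2x_2 (0.0775), or without a mean trend (0.432). For TE 0 rose and 0 fell, with 0 higher and 2 lower at an unadjusted p under 0.05, beside 2.30% and 3.46% of all genes. These 60S factors thus had footprints that moved in opposite directions in the same libraries, with *MDN1* mRNA at 0.27 (SE 0.24) and *GTPBP4* mRNA at 0.13 (SE 0.19). In these libraries *egr-5*, an epidermal lineage marker, was higher in footprints (0.83, SE 0.17, limma adjusted p = 0.00565) and *zpuf-4*, another, lower (-0.94, SE 0.25, adjusted p = 0.0391). The 5 epidermal markers summed to 3782 to 3974 in footprints of *fbl-2* KD and 4212 to 4369 in *egfp* 2x KD, and *zpuf-3* was at 0 in libraries of both groups. The 3 neoblast markers summed to 12384 to 12654 in footprints of *fbl-2* KD and 13709 to 14917 in *egfp* 2x KD, with *piwi-1* at -0.28 (SE 0.08, limma adjusted p = 0.0557). The other neoblast markers overlapped their controls in footprints, *vasa-1* at 0.01 (SE 0.09) and *MCM2* at -0.12 (SE 0.18). The part of the epidermal and neoblast markers in the result was not tested.

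**Figure D4:**
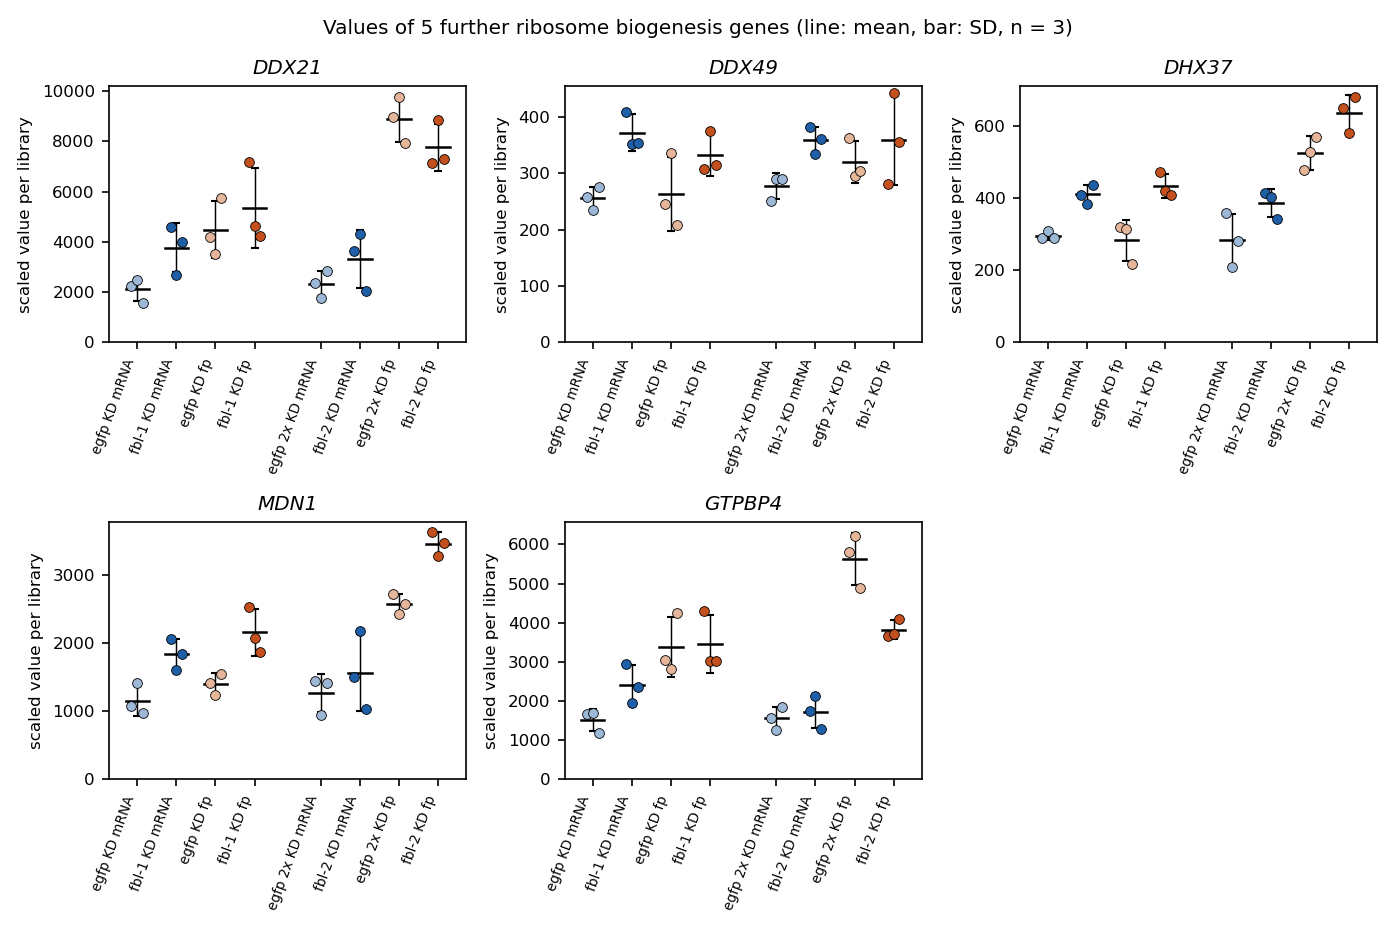
Scaled values of the 5 further ribosome biogenesis genes that passed the test, *DDX21*, *DDX49* and *DHX37* being listed in both gene tables, with a line at the mean and a bar for the SD of 3 libraries, mRNA in blue and footprints (fp) in orange, controls lighter. *DDX21*, *DDX49* and *DHX37* passed in *fbl-1* KD mRNA, and in *fbl-2* KD footprints *MDN1* lies above its controls and *GTPBP4* below.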

How the data were processed

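RNA-seq and Ribo-seq of regenerating worms gave 12 libraries each. The authors trimmed reads with Cutadapt and Sickle, removed rRNA reads, aligned the rest to a transcriptome with Tophat2 and counted unique reads per gene with featureCounts. The deposited values are signal values: whole numbers, named counts, but multiplied by a factor per library and rounded. How the factor was set is not given in the sources used here, so depth is unknown and no count model was used. Ribo-seq columns show the group but not the sample.

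Genes entered a comparison with values of 10 or more in 3 or more of its libraries (for TE, in each assay). Log2 of the value plus a pseudocount of 1 was fitted with limma 3.58.1 in R 4.3.3 with a variance that follows the mean, 3 libraries against 3, and TE as the interaction of KD and assay over 12 unpaired libraries. P-values are two-sided and adjusted over all genes tested (Benjamini-Hochberg), with a threshold of 0.05. Scripts were tested on simulated data. Fold changes are on the log2(value + 1) scale and understate the change of low genes. An exact permutation test of 3 against 3 libraries cannot go below 0.10 and was not used.

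Members, gene lists, markers and tests were chosen with earlier results of these data known. The genes named are every member, the KD targets, the markers, and further biogenesis genes that passed. The study's gene tables also hold the authors' own fold changes and p-values, of which none was used. Alternatives were other pseudocounts (0.5 and 10), no filter on low values, median-of-ratios factors, no mean trend, a replicate block and leaving out each library. The block and scaling settings for the further genes, and the counts of positive changes with a library left out, were added after seeing the data.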

Additional observations from a re-analysis of the deposited data

Results flagged for a closer look

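*UTP15* footprints lay on opposite sides of their controls in the 2 arms. Every library labelled *fbl-1* KD was below every *egfp* KD library (log2 change -0.42), and every library labelled *fbl-2* KD was above every *egfp* 2x KD library (1.25). The difference between the arms was not tested, since *UTP15* was chosen by its mRNA change in *fbl-2* KD, and the second value rests in part on control library egfp_2x_3, at 40. The arms also differed in RNAi dose.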

How the results depend on the processing

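No member passed in the arm in which it was tested under any of the pseudocounts, filters, scalings, trend settings or left-out libraries tried, except *UTP20* footprints in *fbl-2* KD without library fbl-2_2 (0 to 1 members over the left-out libraries). The direction of the median change over the members tested in *fbl-2* KD turned for TE, which lay between -0.266 and 0.118 when a library was left out. The control footprint less mRNA medians lay between 0.131 and 0.264 in *egfp* KD and 0.087 and 0.181 in *egfp* 2x KD.

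Counts over all genes moved more. Without a mean trend 49 genes were called for *fbl-1* KD mRNA, 0 for its footprints, 2 for *fbl-2* KD mRNA and 2 for its footprints, and none of the 5 further genes passed. With a replicate block 413 and 13 mRNAs were called, no member passed, and *DDX49* (adjusted p = 0.0722) and *DHX37* (0.102) were lost. *DHX37* was also lost with no filter on low values (0.0605). Over left-out libraries the calls ranged from 182 to 838 and 0 to 172 for mRNA and footprints of *fbl-1* KD (20 without footprint library egfp-2 and 15 without fbl-1_2), 13 to 91 and 187 to 559 for those of *fbl-2* KD (260 without fbl-2_3 and 231 without egfp_2x_2), and 0 to 10 for TE of *fbl-2* KD. Of the further genes 0 to 2 rose in *fbl-1* KD mRNA, and in *fbl-2* KD footprints 0 to 1 rose and 1 to 2 fell. The labels do not say whether replicate numbers pair the mRNA libraries of a KD with those of its controls. Deviations of same-numbered libraries correlated at 0.0473, -0.137 and -0.0856 in the *fbl-1* arm and -0.15, -0.39 and -0.304 in the *fbl-2* arm. The deviations within a group sum to 0, so these values cannot decide it, and the block is taken only as a shared number. The cause of these shifts was not tested. Standard errors of member mRNA changes in *fbl-1* KD were 0.12 to 0.31, of the order of the changes themselves.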
